A study of Mus musculus with 4 samples.

Results

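The gamma crystallin genes of the mouse were followed in RNA sequencing of eye tissue from embryos, in Anp32b knockout and wild-type libraries. They were chosen by symbol, as Cryga, Crygb, Crygc, Crygd, Cryge, Crygf, Crygn and Crygs, and all 8 were found among the 18702 genes listed. The 2 knockout libraries came from embryos labelled as homozygous for loss of Anp32b, which encodes an acidic nuclear phosphoprotein that binds histones, and the 2 wild-type libraries from embryos without that change, both on the C57BL/6 strain. The design asks what loss of ANP32B does to the eye and to Pax6. The labels name neither the embryonic age nor the part of the gene that was removed, nor how many embryos went into a library. Replicate libraries may thus be technical repeats, and p-values cover only the spread between them.

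Gamma crystallins are small soluble proteins of the lens fibre cell, built from Greek key motifs and packed at very high concentration, which gives the lens its refractive index. Their genes are switched on as lens fibre cells elongate, and several dominant cataract mutations of the mouse lie in them. Cryga to Crygf are a tandem family of close copies. Crygs, which encodes gamma S crystallin of the lens cortex, and Crygn, whose exon structure joins features of beta and gamma crystallin genes, are older and separate branches of the family.

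On GRCm38, 5 of the copies lay head to tail on the minus strand of chromosome 1, within 54.8 kb. From low to high coordinate these were Cryge (65048554 to 65051149), Crygd (65061872 to 65063452), Crygc (65071525 to 65073689), Crygb (65080219 to 65082288) and Cryga (65100389 to 65103373). Crygf (65926520 to 65928307) lay 823.1 kb beyond Cryga on the plus strand. These 6 are called the clustered copies below. Crygn was on chromosome 5 (24751003 to 24758008, minus strand) and Crygs on chromosome 16 (22805203 to 22811577, minus strand). The coding transcript of each clustered copy had 3 exons, as did that of Crygs, whereas that of Crygn had 4.

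Promoters are shown for the copies that later results turn on: Crygf and Crygb, with the largest falls, Crygc and Cryge, with smaller ones, and the separate genes Crygn and Crygs. Each line is the 120 bases before the RefSeq start site, 5′ to 3′ on the coding strand (RefSeq, GRCm38.p6), and capitals mark each run TTTGTG and each run TATATA, which Cryge and Crygf hold at an upstream place as well, and in Crygs the run TATAAA.
Crygf: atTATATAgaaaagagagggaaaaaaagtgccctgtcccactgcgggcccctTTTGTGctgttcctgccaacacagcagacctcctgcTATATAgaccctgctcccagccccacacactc
Crygb: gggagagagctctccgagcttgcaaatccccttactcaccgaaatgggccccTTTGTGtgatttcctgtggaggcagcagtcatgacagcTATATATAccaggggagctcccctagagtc
Crygc: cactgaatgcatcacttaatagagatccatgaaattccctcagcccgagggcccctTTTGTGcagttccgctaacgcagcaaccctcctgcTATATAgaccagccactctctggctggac
Cryge: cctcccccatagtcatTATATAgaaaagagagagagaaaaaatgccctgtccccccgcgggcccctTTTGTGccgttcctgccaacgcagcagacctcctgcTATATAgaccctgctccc
Crygn: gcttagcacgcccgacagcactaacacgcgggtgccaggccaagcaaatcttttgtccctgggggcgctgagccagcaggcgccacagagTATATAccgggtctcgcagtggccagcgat
Crygs: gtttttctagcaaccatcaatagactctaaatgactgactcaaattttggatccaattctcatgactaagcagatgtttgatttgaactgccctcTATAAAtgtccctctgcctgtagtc
They lie at chr1:65926402-65926521 (plus strand) for Crygf, chr1:65082291-65082410 for Crygb, chr1:65073533-65073652 for Crygc, chr1:65051164-65051283 for Cryge, chr5:24757849-24757968 for Crygn and chr16:22811411-22811530 for Crygs, the last 5 on the minus strand. All 8 genes matched a RefSeq promoter of 250 bases before and 50 after the start. For Crygc, Crygn and Crygs the 120 bases lie wholly inside the gene range given above, which came from GENCODE M21. The annotations thus place those starts differently, and distances below count from the RefSeq start.

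No run of letters longer than 6 bases was present in the promoters of all 6 clustered copies. The run TTTGTG, of that length, was in all of them and began between 54 and 77 bases before the start. In that orientation it was absent from the windows of Crygn and Crygs, and 9.39% of 32851 RefSeq promoters of the same length held it (17.7% on either strand). TATATA, which reads the same on both strands, lay within the last 50 bases before the start in 7 of the 8 genes and in 1.35% of all promoters. Crygs, the exception, carried TATAAA in its place, 25 bases before the start. Over the whole window, 5.67% of all promoters held TATATA and 13.6% held TATAAA on either strand. TATAAA was not counted over the last 50 bases alone. Both TTTGTG and TATATA were picked after the promoters had been read. TGCTGA, one arm of a Maf recognition element, was found on either strand in Cryga, Crygc, Crygn and Crygs and in 19.5% of all promoters. ACAAT, the core of a SOX site, was found on either strand in Crygd, Cryge, Crygf and Crygs and in 31.0% of all promoters. These matches are letters in a window and were not tested as binding sites.

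The clustered copies are alike enough for reads to be divided among them. Coding identity between pairs of clustered copies ran from 79.2% to 98.1% (median 82.9%, 15 pairs), against 56.4% to 62.6% for the 13 pairs that include Crygn or Crygs. Cryge and Crygf were closest, with 10 differences over 525 coding bases and a longest identical run of 134 bases. The stretch of 60 coding bases where they differ most (positions 409 to 468 counted from the start codon, GENCODE M21 transcripts on GRCm38) is shown because a read has to cover such bases to be assigned to either copy, and capitals mark the 4 bases that differ.
Cryge: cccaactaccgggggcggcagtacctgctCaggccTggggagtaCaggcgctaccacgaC
Crygf: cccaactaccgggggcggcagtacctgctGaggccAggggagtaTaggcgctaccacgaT
Of the stretches of 100 bases in each transcript, 11.9% of those in Crygf, 27.1% in Cryge, 15.8% in Crygd, 22.8% in Crygb and 23.8% in Crygc occurred unchanged in a transcript of another gene. For Cryga this share was 47.7%, all of it with the overlapping gene model Gm28845. No stretch of 50 bases of Crygn or Crygs was shared, so their values do not depend on such a division. How the authors assigned shared reads, how long the reads were and whether strand was used is not stated in the labels, so the value of any single clustered copy is uncertain where it is set against another.

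Libraries were of similar depth, estimated from the spacing of low values at 17760000 to 18100000 fragments, and 13947 and 13985 genes in the knockout and 13746 and 13749 in the wild type reached 1 FPKM (fragments per kilobase of transcript, scaled to the library's total of fragments). The targeted gene Anp32b had 94.53 and 92.67 FPKM in the knockout, against 163.18 and 179.12 FPKM in the wild type, so its transcript was lower but not absent. In bulk tissue, fewer lens cells and less RNA per lens cell cannot be told apart. Summed levels of the marker lists of other tissues differed between the same libraries. For the counts of markers that follow, 33.5% of all genes tested were called higher and 21.1% lower (limma, described below). The 10 muscle markers summed to 3164 and 3218 FPKM in the knockout and 1504 and 1600 FPKM in the wild type, and all 10 were called higher. Periocular mesenchyme markers (8 of 8 higher) summed to 3364 and 3386 FPKM in the knockout and 1541 and 1511 FPKM in the wild type. Markers of corneal and surface epithelium (5 of 6 higher, Krt12 lower) summed to 1117 and 1116 FPKM in the knockout and 562.3 and 586.4 FPKM in the wild type. Bone markers (6 of 6 higher) summed to 162.2 and 163.7 FPKM in the knockout and 20.7 and 19.5 FPKM in the wild type. These calls were the same under each rescaling and with TPM values. Erythroid genes (6 of 7 tested called higher, 5 of 7 under both rescalings, 9 of 9 with TPM values) summed to 9624 and 9948 FPKM in the knockout and 6280 and 6738 FPKM in the wild type. Of 10 retina markers, 7 were called lower and 2 higher (5 lower and 2 higher with TPM values, 8 or 7 lower and 1 higher under the rescalings), and their sums were 469.2 and 475.8 FPKM in the knockout and 545.3 and 541.3 FPKM in the wild type. The 12 lens fibre genes summed to 206.0 and 206.4 FPKM in the knockout and 2089 and 2140 FPKM in the wild type, so lens and retina transcripts, which the tissue label implies, were present in each library. No marker on these lists was at 0 in every library, and the part of tissue makeup in the results below was not tested.

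Gamma crystallins made up 0.536% and 0.542% of the FPKM sum of the knockout libraries, against 6.65% and 6.43% in the wild-type libraries. Cryga was the most abundant in the wild type. Its level was 582.32 and 582.06 FPKM in the knockout libraries, against 7869.16 and 7624.49 FPKM in the wild-type libraries. Cryge was at 570.55 and 586.72 FPKM in the knockout and 7347.51 and 7046.99 FPKM in the wild type. Both genes held places 3 and 4 among all genes in each wild-type library, and places 100 to 103 in the knockout. Crygd was at 336.60 and 354.07 FPKM in the knockout and 4748.47 and 4578.36 FPKM in the wild type. Crygb was at 294.73 and 298.95 FPKM in the knockout and 4575.77 and 4715.43 FPKM in the wild type. The wild-type values of Crygd and Crygb overlapped, so the order of this pair in the wild type is not resolved, whereas in the knockout Crygd was above Crygb in both libraries.

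The remaining copies were lower in every library. Crygf was at 163.85 and 168.51 FPKM in the knockout and 2734.24 and 2651.97 FPKM in the wild type. Crygc was at 206.27 and 203.96 FPKM in the knockout and 2460.79 and 2426.73 FPKM in the wild type. Crygc was thus above Crygf in both knockout libraries and below it in both wild-type libraries. Crygn was at 55.02 and 55.66 FPKM in the knockout and 519.80 and 563.44 FPKM in the wild type. Crygs was at 77.24 and 77.28 FPKM in the knockout and 503.76 and 517.37 FPKM in the wild type. Crygs stood above Crygn in both knockout libraries and below it in both wild-type libraries. In the knockout the order was Cryga and Cryge, which overlapped, then Crygd, Crygb, Crygc, Crygf, Crygs and Crygn. For none of the 8 genes did the values of the 2 groups overlap, and both knockout values lay below both wild-type values in 32.4% of all genes tested.

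**Figure D1:**
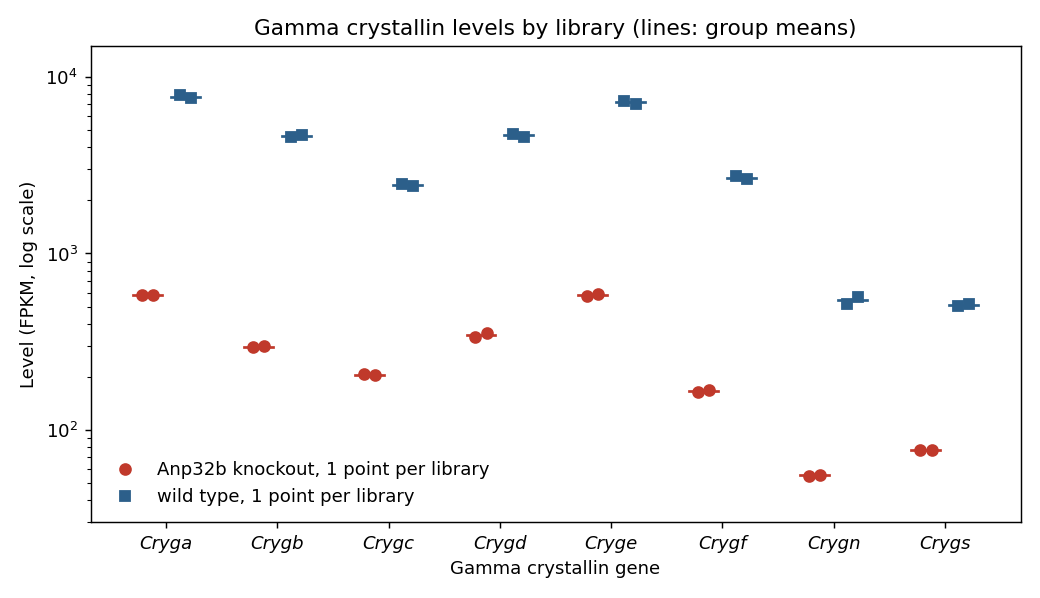
Level of each gamma crystallin gene in FPKM on a log scale, with 1 point per library and a line at each group mean (knockout left, wild type right). All knockout points lie below all wild-type points of the same gene, from 55.02 to 586.72 FPKM in the knockout and from 503.76 to 7869.16 FPKM in the wild type.

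All 8 gamma crystallin genes were lower in the knockout, by 6.54-fold to 16.1-fold, and their median log2 fold change was −3.68 against 0.04 over all 13887 genes tested (limma on log2(FPKM + 1), Benjamini-Hochberg adjusted over all genes, two-sided). Of all genes tested, 54.6% were called in either direction, 21.1% lower and 33.5% higher. Crygf had the lowest log2 fold change of the genes tested (the third lowest with a pseudocount of 0.1), with knockout and wild-type means of 166.2 ± 3.30 and 2693 ± 58.2 FPKM (SD, n = 2 each), which is 16.1-fold lower (95% interval 15.3 to 17.0, limma adjusted p = 2.71e-09). Crygb had the next largest fall, 15.6-fold (95% interval 14.8 to 16.5), with means of 296.8 ± 2.98 and 4646 ± 98.8 FPKM. Crygd was 13.5-fold lower (95% interval 12.6 to 14.4) and Cryga 13.3-fold (12.5 to 14.1). Cryge was 12.4-fold lower (95% interval 11.6 to 13.2) and Crygc 11.9-fold (11.3 to 12.5).

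The genes outside the cluster fell by less. Crygn, with means of 55.3 ± 0.45 and 541.6 ± 30.9 FPKM, was 9.62-fold lower (95% interval 8.99 to 10.3, limma adjusted p = 1.23e-08). Crygs, with means of 77.3 ± 0.03 and 510.6 ± 9.62 FPKM, was 6.54-fold lower (95% interval 6.24 to 6.85, limma adjusted p = 5.97e-09). The knockout mean of Crygs was 15.1% of the wild-type mean, against 10.2% for Crygn and 6.17% to 8.39% for the clustered copies. At the estimated depth the lowest member, Crygn, rested on about 756 and 759 fragments in the knockout libraries, a counting error of up to 3.64%, and the clustered copies on at least 1839. The direction was the same with every rescaling tried and without any 1 library.

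To test whether copies fell by different amounts, the level of each gene was set against the mean of the clustered copies in the same library (for a clustered copy, the mean of the other 5), and the same limma test was run over all genes. Nearly every gene differs from the clustered copies on this measure (13883 of 13887, or 100% after rounding, were called, and the 0.0144% that fell by more were Crygf and Crygb), so the adjusted p is close to the unadjusted p and a call is read only as a difference from these copies. Crygs fell by less than the clustered copies, by 1.07 on the log2 scale (SE 0.04, limma adjusted p = 2.93e-09), and Crygn by 0.51 less (SE 0.05, limma adjusted p = 6.69e-06). Both calls were kept under the 12 alternatives tried, with differences of 1.03 to 1.10 for Crygs and 0.44 to 0.58 for Crygn.

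Within the cluster the falls were not equal. Each copy was set against the mean of the other 5, so these differences are tied to each other. The large falls of Crygf (log2 fold change −4.01) and Crygb (−3.96) lower that mean for the remaining copies and so raise their differences. Among those copies the log2 fold changes were −3.57 for Crygc, −3.63 for Cryge, −3.73 for Cryga and −3.75 for Crygd. Whether Crygc or Cryge differed from a mean without Crygf and Crygb was not tested. Crygf fell by more than the other 5, with a difference of −0.28 (SE 0.04, limma adjusted p = 0.000124), and this call was kept without each library in turn. Crygb also fell by more (−0.22, limma adjusted p = 0.00216), but this call was lost when either knockout library was left out (adjusted p = 0.113 without replicate 1, 0.123 without replicate 2). Crygc fell by less (0.25, limma adjusted p = 0.00038), a call lost without knockout replicate 1 (adjusted p = 0.0533). Cryge fell by less (0.17, limma adjusted p = 0.0122), a call lost when knockout replicate 1 (adjusted p = 0.280) or knockout replicate 2 (0.325) was left out, or when low values were kept (0.0529). Cryga (0.05, 95% interval −0.07 to 0.18) and Crygd (0.03, −0.08 to 0.14) were not past the threshold, but Cryga was called without wild-type replicate 1 (0.06). In the relative fits without a wild-type library, each gene's variance was taken wholly from the trend over all genes. Calls kept or gained in those fits, also for Crygs and Crygn, are therefore weak. Each clustered copy shares identical stretches with others, so a difference between copies also depends on how reads were divided, which was not tested.

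**Figure D2:**
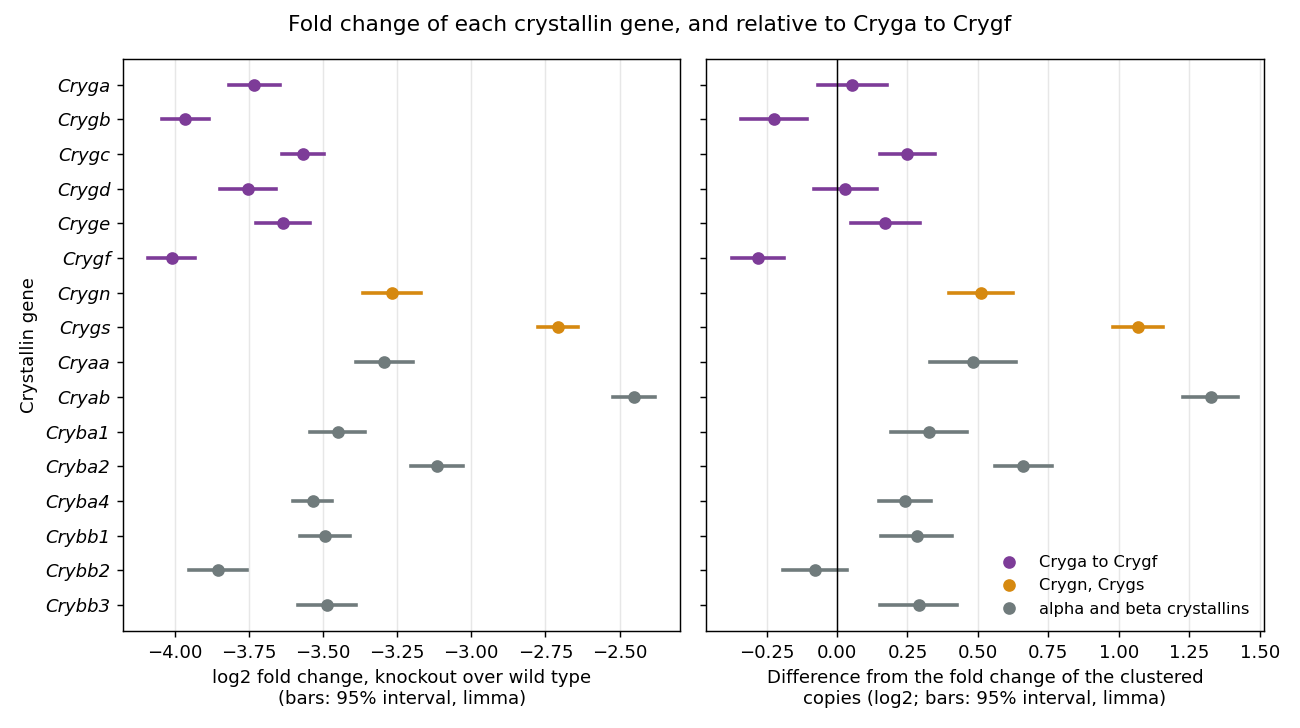
Left, log2 fold change of each crystallin gene (knockout over wild type). Right, its difference from the fold change of Cryga to Crygf, both with 95% intervals from limma. Crygf and Crygb lie left of 0 in the right panel, at −0.28 and −0.22, and Crygs and Cryab lie farthest right, at 1.07 and 1.33.

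The share of each copy in the gamma total differed between the groups by −2.40 percentage points for Crygb to 1.67 for Crygs (knockout minus wild type). Crygs took 3.38% and 3.32% of the summed FPKM of the 8 genes in the knockout libraries, against 1.64% and 1.72% in the wild-type libraries. Crygn took 2.41% and 2.39% in the knockout, against 1.69% and 1.87% in the wild type. The separate genes thus had larger shares in both knockout libraries. Crygb took 12.9% and 12.8% in the knockout and 14.9% and 15.7% in the wild type. Crygf took 7.17% and 7.24% in the knockout and 8.89% and 8.80% in the wild type. These were the members whose shares were smaller in both knockout libraries than in both wild-type libraries. Cryge had 25.0% and 25.2% in the knockout and 23.9% and 23.4% in the wild type. Crygc had 9.02% and 8.76% in the knockout and 8.0% and 8.06% in the wild type. Both took larger shares in both knockout libraries. Cryga, with 25.5% and 25.0% in the knockout and 25.6% and 25.3% in the wild type, and Crygd, with 14.7% and 15.2% in the knockout and 15.4% and 15.2% in the wild type, overlapped between groups, although as shares of fragments neither did (−0.39 points for Cryga, −0.45 for Crygd). With 2 libraries against 2, an exact two-sided permutation test cannot go below p = 0.333, which the 6 members without overlap reached, so no share is called changed.

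**Figure D3:**
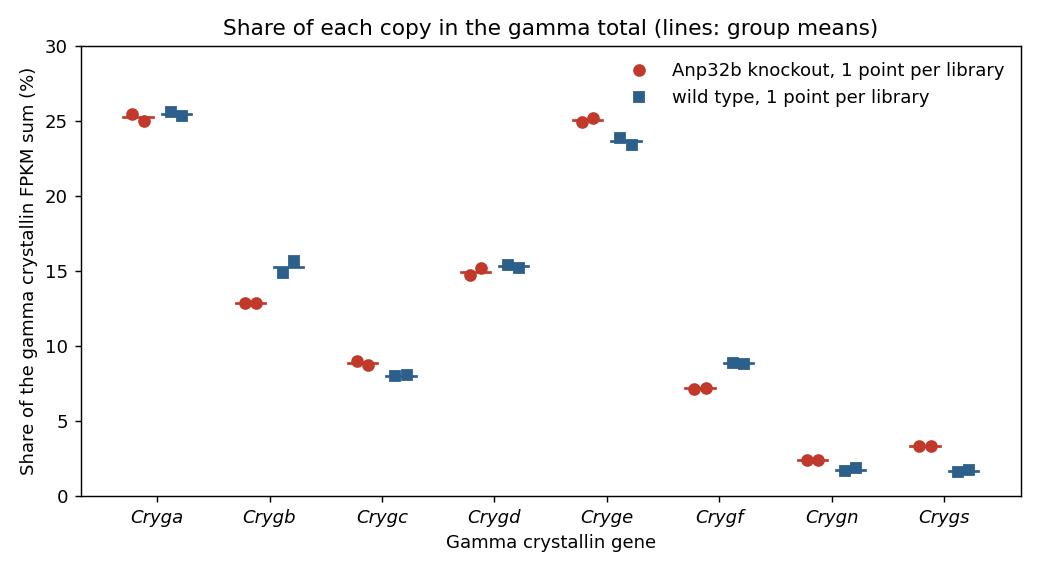
Share of each gamma crystallin gene in the summed FPKM of the 8 genes, in percent, with 1 point per library and a line at each group mean (knockout left, wild type right). Cryga and Cryge are the largest shares in all 4 libraries, and Crygs lies at 3.35% on average in the knockout and 1.68% in the wild type.

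Ratios between copies, taken within each library, restate the levels above and are no separate evidence. The ratios given here did not overlap between the groups, and none was tested. Cryge exceeded Crygf by 3.48-fold in each knockout library and by 2.69-fold and 2.66-fold in the wild-type libraries, and these are the copies with the most similar coding sequences printed above. The ratio of Crygc to Crygf was 1.26 and 1.21 in the knockout and 0.900 and 0.915 in the wild type. The ratio of Crygs to Crygn, which share no long stretch of sequence, was 1.40 and 1.39 in the knockout and 0.969 and 0.918 in the wild type.

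The other crystallins of the lens set the gamma genes in context. All 8 alpha and beta crystallins were lower (median log2 fold change −3.47), where 21.1% of all genes were called lower. The beta crystallins, which share the Greek key fold with the gamma crystallins, fell by 8.66-fold to 14.5-fold on the log2(FPKM + 1) scale. The upper value belongs to Crybb2, a low gene whose fall the added 1 understates. In FPKM, Crybb2 averaged 7.55 in the knockout and 122.7 in the wild type. It thus kept 6.15% of its wild-type level, beside 6.17% for Crygf. Crybb2, at 7.81 and 7.29 FPKM in the knockout and 120.97 and 124.43 FPKM in the wild type, was the gene of this list whose difference from the clustered gamma copies did not pass the test (−0.08, 95% interval −0.19 to 0.04). It was called to fall by more than they did with TPM values (−0.17), with a pseudocount of 0.1 (−0.22) and without knockout replicate 1 (−0.14). Cryba1 (0.33), Cryba2 (0.66), Cryba4 (0.24), Crybb1 (0.28) and Crybb3 (0.29) fell by less than the clustered copies, with limma adjusted p from 3.59e-07 for Cryba2 to 0.00117 for Crybb3. The alpha crystallin genes, which encode small heat shock chaperones, also fell by less than the clustered copies, with differences of 0.48 for Cryaa (limma adjusted p = 8.28e-05) and 1.33 for Cryab (limma adjusted p = 1.23e-09). Leaving out either knockout library ended the calls of Cryaa, Cryba1, Crybb1 and Crybb3, with differences of 0.48 and 0.49, 0.34 and 0.31, 0.25 and 0.32, and 0.24 and 0.34 without knockout replicates 1 and 2. Cryab, which is also active in muscle and other tissues, was at 209.28 and 204.34 FPKM in the knockout and 1127.38 and 1142.40 FPKM in the wild type.

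Relatives of the gamma crystallins that act outside the lens fibre did not share the fall. Crybg1, Crybg2 and Crybg3, which belong to the beta-gamma superfamily by their Greek key domains, were all 3 called higher, also under each rescaling, where 33.5% of all genes tested were called higher. Crybg1 was at 3.55 and 3.85 FPKM in the knockout and 1.88 and 2.01 FPKM in the wild type (log2 fold change 0.67, limma adjusted p = 0.000399). Crybg2 (0.54) and Crybg3 (0.39) rose by less on the log2(FPKM + 1) scale, which understates changes of genes at such levels.

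Lens fibre genes without a Greek key fold fell too. All 12 on the list were lower, with a median log2 fold change of −2.78, where 21.1% of all genes tested were called lower. Bfsp1, for a beaded filament protein of the fibre cell, was at 32.63 and 31.25 FPKM in the knockout and 437.28 and 434.98 FPKM in the wild type, and its change did not pass the test for a difference from the clustered gamma copies (0.05, 95% interval −0.05 to 0.14). On the log2(FPKM + 1) scale the other 11 were called to fall by less than the clustered copies. Of all 13887 genes tested, 13881 were called to fall by less or rise. Among the 11 were Bfsp2, the partner of Bfsp1 (0.12, limma adjusted p = 0.0152), and the fibre membrane gene Lim2 (0.28, limma adjusted p = 9.12e-05). Bfsp2 was not past the threshold without knockout replicate 1 (0.08) or without a variance trend (0.12). The added 1 understates the fall of low genes, and with a pseudocount of 0.1 the differences of Lctl (−0.11), Dnase2b (0.07) and Bfsp2 (0.08) were not past the threshold. In FPKM, Lctl averaged 0.905 in the knockout and 14.7 in the wild type, and Dnase2b 0.415 in the knockout and 6.63 in the wild type. Their knockout means were 6.16% and 6.26% of the wild-type means, beside 6.17% for Crygf. Among the genes tested, the 5 non-members whose centred log2(FPKM + 1) values over the 4 libraries were nearest to the mean of the clustered copies were Bfsp1, Crybb2, Bfsp2, Cryba4 and Lim2. Their mean absolute differences from it were 0.03, 0.05, 0.06, 0.12 and 0.14, against 0.26 for Crygn and 0.53 for Crygs.

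Among 14 genes for factors known to act on gamma crystallin promoters or on lens fibre differentiation, 10 were lower and 3 higher, with a median log2 fold change of −0.52, where 21.1% of all genes tested were called lower and 33.5% higher. Hsf4, a heat shock factor of lens fibres, was at 1.76 and 1.79 FPKM in the knockout and 14.09 and 13.49 FPKM in the wild type (log2 fold change −2.41, limma adjusted p = 6.35e-07). Maf, the large Maf factor of lens fibres, was at 12.31 and 12.16 FPKM in the knockout and 31.27 and 33.32 FPKM in the wild type (−1.33, limma adjusted p = 1.76e-06). Foxe3, a forkhead gene of lens epithelial cells, was at 1.86 and 1.53 FPKM in the knockout and 10.67 and 9.67 FPKM in the wild type (−2.05, limma adjusted p = 4.21e-06). The groups did not overlap for any of these, where both knockout values lay below both wild-type values in 32.4% of all genes tested. The added 1 understates the falls of Hsf4 and Foxe3, whose knockout means were 12.9% and 16.7% of the wild-type means in FPKM. Each of the 14 factors changed by less than the clustered gamma copies in the relative test. Of all 13887 genes tested, 13881 were called to fall by less or rise there, so this is not particular to the factors. Pax6 itself, the regulator of eye formation, was at 107.76 and 110.97 FPKM in the knockout and 160.94 and 158.43 FPKM in the wild type (−0.54). Pax6, Sox2, Six3, Nrl and Maf are also active in the retina or in other tissues of the eye. Rarb (0.55) and Rxra (0.42), for retinoid receptors, were among those called higher, and Sox3 was not past the threshold (0.12, adjusted p = 0.209) although it was called higher with TPM values.

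The genes next to the gamma crystallins that reached a mean of 1 FPKM changed by less than the clustered copies. Of the 10 genes that lie beside or between Cryga to Crygf, 7 were tested, and their log2 fold changes ran from −0.21 to 0.09. Every tested neighbour of the 3 loci differed from the clustered copies in the same relative test, Plekhm3 the least of the neighbours (3.56). Since 13883 of all 13887 genes tested were called in that test, these calls are not particular to the neighbours. Idh1, for the cytosolic isocitrate dehydrogenase, lies between Cryga and Crygf and was at 59.48 and 60.24 FPKM in the knockout and 69.57 and 66.78 FPKM in the wild type (−0.18, limma adjusted p = 0.00287). Plekhm3 (−0.21) and the predicted gene LOC115487094 (−0.14) were also called lower, where 21.1% of all genes tested were called lower. Pikfyve (0.04), Map2 (−0.05), Unc80 (0.03) and Rpe (0.09) were not past the threshold. These small calls moved with the scale, since with TPM values none of the 7 was called lower and Rpe was called higher, while under both rescalings of FPKM Map2 was called lower as well. Plekhm3 was not past the threshold without knockout replicate 1 (−0.23), knockout replicate 2 (−0.20) or wild-type replicate 1 (−0.18), nor was LOC115487094 without knockout replicate 2 (−0.11) or wild-type replicate 1 (−0.14). Akr1cl, D630023F18Rik and Pth2r were below a mean of 1 FPKM.

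Around Crygn all 6 neighbours were tested, with log2 fold changes from −0.08 for Prkag2 to 0.63 for Wdr86. Wdr86, Smarcd3 (0.41), Galnt11 (0.21) and Rheb (0.09) were called higher, where 33.5% of all genes tested were called higher. The call of Rheb was lost under both rescalings, without a variance trend, and without any 1 library (0.08 to 0.10 in these last fits). That of Galnt11 was lost without knockout replicate 2 (0.16) or wild-type replicate 1 (0.19). Nub1 (0.01) was called higher with TPM values, and Prkag2 lower when crystallin and erythroid genes were kept out of the scaling. Around Crygs 4 of 6 were tested and called lower by small amounts, where 21.1% of all genes tested were called lower. These were Tra2b (−0.20), Etv5 (−0.15), Tbccd1 (−0.18), which lies 1.8 kb away, and Dnajb11 (−0.16). None of these was past the threshold with TPM values. Tbccd1 was not past it without knockout replicate 1 (−0.14), knockout replicate 2 (−0.22) or wild-type replicate 1 (−0.13), nor Dnajb11 without knockout replicate 1 (−0.13). The call of Tbccd1 was also lost with no filter and without a variance trend (−0.18 in both). Dgkg and Fetub were below a mean of 1 FPKM. Dgkg was at 0.31 and 0.30 FPKM in the knockout and 1.08 and 1.29 FPKM in the wild type, and was called lower where it was tested, with TPM values (−1.05) and with no filter (−0.74).

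**Figure D4:**
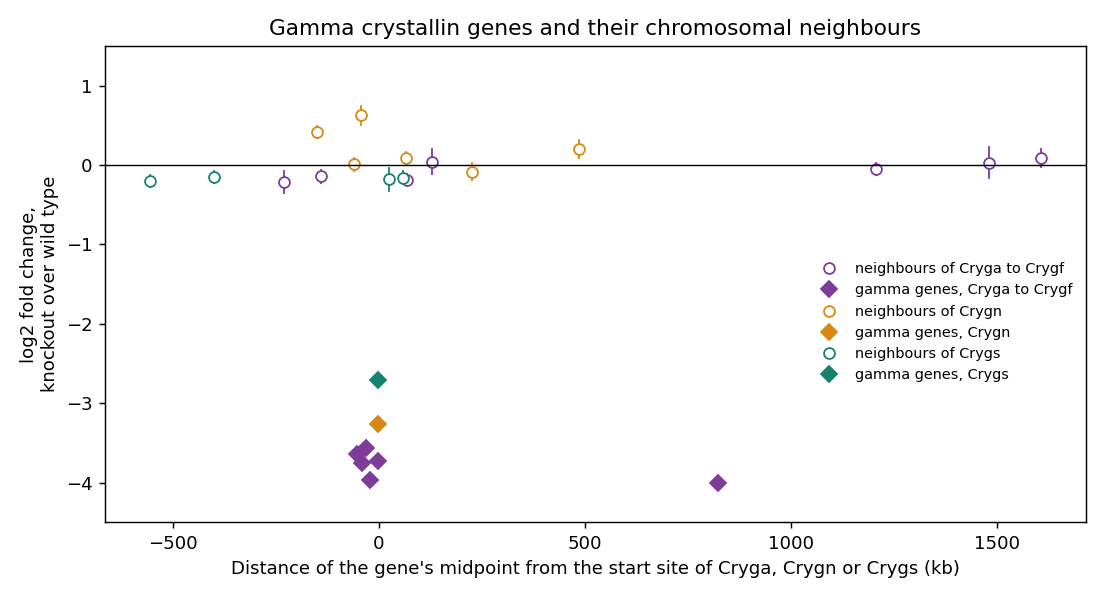
log2 fold change (knockout over wild type) of the gamma crystallin genes (filled diamonds) and of their tested neighbours (open circles, with 95% intervals from limma), by distance in kb from the start site of Cryga, Crygn or Crygs. The gamma genes lie between −4.01 and −2.71 and the neighbours between −0.21 and 0.63.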

How the data were processed

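Per the labels' protocols, total RNA of embryonic eyes was isolated with Trizol for Illumina sequencing, and the labels gave the genotype and replicate number of each of the 4 libraries. The authors deposited 1 table per library with FPKM values, and beside them TPM values, which are the same values rescaled to 1 common sum, per the file headers and the values. GRCm38, GRCh38, Cufflinks, HISAT2, TopHat and DESeq are listed, with no roles, per the submitters' processing notes. FPKM divides by all fragments, so a fall of abundant transcripts raises the values of the rest. Depth was estimated as the value that best fitted the spacing of low FPKM values. At that depth, 52.8% to 63.5% of them lay within 0.15 of a whole fragment, too few to recover counts. The share by chance is 30% at a depth fixed beforehand, and was not worked out for a depth fitted to the same values.

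Genes averaging 1 FPKM or more entered the tests on log2(FPKM + 1), in which limma 3.58.1 (R 4.3.3), with a trended variance and no term but genotype, compared knockout and wild type at an adjusted p of 0.05. The limma code was tested on simulated data. Genes were keyed by Entrez number (18647 in the RefSeq table of GRCm38.p6), and 26 symbols shown as dates were restored from it. Gene positions came from GENCODE M21, those of neighbours from RefSeq. Alignments used Biopython 1.88. The named genes were the members, the alpha and beta crystallins, up to 3 genes of lowest p from each other list that is described by name, the 3 nearest genes on each side of each locus, and the 5 nearest patterns. Genes lying between Cryga and Crygf and other list members were named after their values were seen. The members and lists were chosen with earlier results of these data known. Protein sequences were not used here, and not every list member is reported here. Alternatives were a pseudocount of 0.1, no filter, a minimum of 5 FPKM in 2 libraries or more, replicate numbers as blocks, 2 rescalings (without crystallin and erythroid genes, and by median of ratios), TPM, no variance trend, each library left out, and other denominators for shares.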

Additional observations from a re-analysis of the deposited data

How the results depend on the processing

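All 8 gamma crystallins were called lower under each of the 12 alternatives. The split of all calls moved with the values used, and the share of higher genes was 61.3% with FPKM, 80.7% with TPM (15037 genes tested, since the minimum of 1 was then in TPM) and 44.9% when crystallin and erythroid genes were kept out of the scaling, and the median log2 fold change of all genes was 0.04, 0.16 and −0.04 in these fits. Same-numbered libraries share only a number, and the correlation of their deviations from the group means was 0.04 over 13887 genes. With the replicate block 7828 genes were called, against 7586 without it, and no member's call changed. For the changes relative to the clustered copies, Cryge was not past the threshold without a filter (0.17), and its values without each library ran from 0.15 to 0.19. Those of Cryga ran from 0.038 to 0.070, of Crygb from −0.27 to −0.18 and of Crygc from 0.22 to 0.28, with calls lost or gained as given above. Fits that leave out a library assume that the lone sample of its group varies like the others. With the clustered copies as the denominator the share differences were 0.42 points for Cryga, 1.12 for Crygc, 0.014 for Crygd, 2.13 for Cryge and −1.52 for Crygf. The Cryga difference was thus above 0 with that denominator and below it over all 8 genes, and for Crygd the groups overlapped under both. As shares of fragments they were 0.73 points for Crygn and 2.28 for Crygs. These moves follow from the change of denominator or unit. No count test could be run on FPKM, and 2 libraries a group limit every estimate of spread.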
